A study of Mus musculus with 4 samples.

Results

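The 9 genes described here, Pcsk1, Pcsk2, Pcsk1n, Scg5, Cpe, Chga, Chgb, Scg2 and Scg3, encode the machinery that turns prohormones into hormones and packs them into dense-core granules. They were taken by symbol from the 31053 genes of the count tables, and each matched 1 row. Islet hormones are made as larger precursors, which are cut at pairs of basic residues by the prohormone convertases encoded by Pcsk1 and Pcsk2 and then trimmed at the cut ends by carboxypeptidase E, the product of Cpe. In β-cells both convertases act on proinsulin, whereas the product of Pcsk2 alone releases glucagon from its precursor in α-cells. The Pcsk1n product, proSAAS, inhibits the first convertase, and the Scg5 product is the chaperone that the second needs in order to mature. Chromogranins and secretogranins (Chga, Chgb, Scg2, Scg3) are acidic proteins that gather hormones in the forming granule and are themselves cut into peptides.

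Islets of adult male C57BL/6 mice (C57BL6/J in the study's methods), pooled before they were divided, were left without cytokine (untreated) or exposed ex vivo for 6 h to IL-1β, to IFN-γ or to both, and then dissociated and sequenced cell by cell in droplets, with a unique molecular identifier (UMI) marking each captured transcript. The labels name no transgene or other treatment in any of the 4 groups and give no culture time for the untreated one, and each condition is 1 library, so that no difference between conditions has a replicate check and none was tested. The cells kept had between 200 and 4000 genes detected and no more than 12% of their UMIs from mitochondrial genes, which left 7471 of 12571 barcodes, or 1521 untreated, 2018 IL-1β, 2122 IFN-γ and 1810 combined cells, with 23035443, 15667390, 20618281 and 20138917 UMIs in the same order. Cells with at least 10% of their UMIs from Ins1 and Ins2 were called β-cells, and those with at least 5% from Gcg, Sst or Ppy were called α-, δ- or PP-cells.

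This gave 1163, 1057, 1207 and 1243 β-cells (in the order untreated, IL-1β, IFN-γ, combined), 89, 363, 301 and 176 α-cells, 35, 100, 126 and 59 δ-cells, and 31, 34, 64 and 51 PP-cells. A further 175 cells passed more than 1 hormone limit and were left out, and 1197 passed none. The classes bore the markers of their names. Gcg was at 216908 CPM (UMIs per 1000000 UMIs of the class) in untreated α-cells and Sst at 114111 CPM in untreated δ-cells, whereas Mafa, a β-cell transcription factor, was at 619.9 CPM in untreated β-cells and at 9.0 CPM in untreated α-cells. Hormones of other classes were present at lower levels and moved with the libraries. Sst was at 206, 2325, 1018 and 1914 CPM in α-cells and at 63.3, 689, 139 and 281 CPM in β-cells in that order, Gcg at 162, 844, 285 and 407 CPM in β-cells, and Iapp at 2134, 9358, 3058 and 6637 CPM in α-cells, all highest in the IL-1β library. Ins2 was at 4109, 5741, 2891 and 3014 CPM in α-cells and Ppy at 21578, 18617, 17575 and 19239 CPM in δ-cells. The part of these in the member ratios was not tested. Subtracting the β-cell profile, scaled to Ins1 and Ins2, from the other classes changed no member count past 1.5-fold. That step leaves the β-cells as they are and is no check on Sst in α-cells or Ppy in δ-cells. Few cells lay close to the insulin limit, with a share of 8 to 12%, in the untreated library (10 cells), but 150 did so under IL-1β, 80 under IFN-γ and 62 under their combination. The upper gene limit removed 843 untreated cells and 146, 345 and 222 cells of the treated libraries, and 4 kept barcodes occurred in more than 1 library.

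Each class level is the summed UMIs of a gene as CPM, with an exact Poisson 95% interval in parentheses where one is given. These intervals and those of ratios cover counting error only, not the spread between mice or cultures. The hormone genes (Ins1, Ins2, Gcg, Sst, Ppy, Pyy and Iapp) took 47.7% of all β-cell UMIs in the untreated library, 29.7% under IL-1β, 35.4% under IFN-γ and 38.6% under both. All other genes therefore share a larger remainder after treatment, and the median log2 ratio of all genes counted in β-cells was 0.34 under IL-1β, 0.28 under IFN-γ and 0.03 under both. With the hormone genes left out of the totals these medians were -0.09, -0.03 and -0.20. Ratios use all UMIs unless the hormone genes are said to be left out, and values without them are added where a ratio then passes to the other side of 1 or of 1.5-fold. Levels of different genes were not compared with each other, since counts at transcript ends have no common scale between genes.

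Between cell classes, the 9 genes fell into distinct patterns. Pcsk1 and Chga were highest in β-cells, Pcsk2 and Pcsk1n in α-cells, Chgb and Scg2 in δ-cells, and Scg5 was lowest in β-cells. To compare classes, the 16 sums (4 classes in 4 libraries) were fitted with edgeR's quasi-likelihood test with the library as a term and p adjusted over 8675 genes. The libraries stand in for replicates here although they differ in treatment. Between α- and β-cells 3 members were higher in α, 4 lower and 2 not called, where 43% of all genes were called (20.3% higher and 22.7% lower). For δ- against β-cells 3 were higher, 3 lower and 3 not called, against 34.4% of all genes called (16.6% higher and 17.8% lower). For PP- against β-cells 3 were higher, 3 lower and 3 not called, against 26.9% (12.4% and 14.5%). For δ- against α-cells 3 were higher, 4 lower and 2 not called, against 19.7% (10.8% and 8.84%). The scale bears on these counts, since without TMM scaling the share of all called genes that were higher in α- than in β-cells moved from 47.2% to 80.4%, and from 48.3% to 84.4% for δ- against β-cells, with median log2 differences over all genes tested of 0.33 and 0.38. With DESeq2 the share higher in PP-cells moved from 46.1% to 56.2%, with a median of 0.30.

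**Figure D1:**
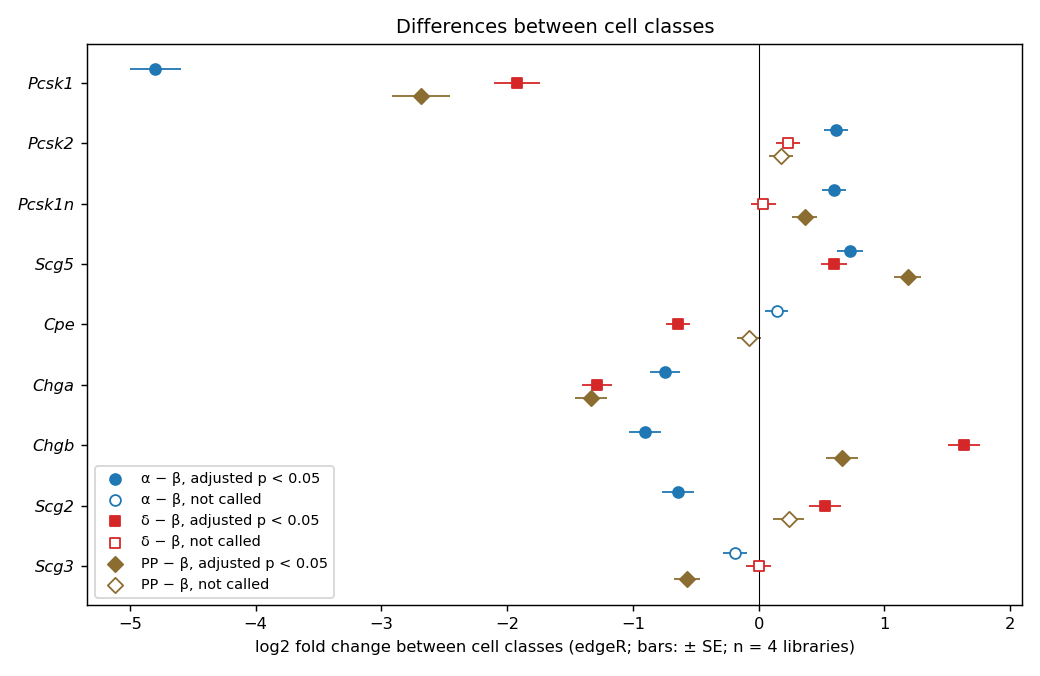
Log2 fold changes of the 9 genes between cell classes, with bars of ± SE from the edgeR fit to the 16 sums (4 libraries). Filled symbols passed an adjusted p of 0.05 and open symbols did not. Pcsk1 lies far to the left in α-cells at -4.80, and Chgb to the right in δ-cells at 1.63.

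Pcsk1 (chr13:75089826-75134861 in GRCm38, plus strand) was highest in β-cells. It stood there at 157 CPM untreated, 162 under IL-1β, 179 under IFN-γ and 132 under both cytokines. In α-cells the levels were 7.87, 10.0, 4.49 and 5.60 CPM in the same order, from 7, 26, 11 and 9 UMIs. In δ-cells they were 52.2, 47.2, 66.9 and 44.0 CPM and in PP-cells 35.8, 8.06, 20.5 and 28.9 CPM. The 4 β-cell values lay above all 12 others, and the 4 δ-cell values above all 4 α-cell values. The log2 difference was -4.80 ± 0.20 (SE), adjusted p = 3.00e-14 for α- against β-cells, -1.93 ± 0.18 (SE), adjusted p = 2.81e-08 for δ- against β-cells and -2.69 ± 0.23 (SE), adjusted p = 1.19e-08 for PP- against β-cells. It was 2.87 ± 0.28 (SE), adjusted p = 8.56e-08 for δ- against α-cells. Free RNA from other cells bears on the low values. Endothelial cells and macrophages should lack these transcripts, and 3.33%, 2.86%, 2.17% and 0% of the endothelial cells (1 of 30, 1 of 35, 1 of 46 and 0 of 23 cells, the last of which allows a share of up to 13.0%, taken as 3 cells of the total) held a Pcsk1 UMI, against 5.62, 5.51, 2.99 and 5.11% of α-cells. Median depths were 5394.5, 4015, 4700 and 10371 UMIs in the endothelial cells and 10870, 6672, 8107 and 8675.5 in the α-cells. None of the macrophages held one (0 of 36, 37, 45 and 30 cells, which by the same measure allows shares of up to 8.33%, 8.11%, 6.67% and 10%). The α-cell shares lay within what these small numbers of cells allow, and whether the α-cell UMIs are free RNA was not tested. The β-cell shares were 83.5, 64.2, 74.9 and 70.5% and the δ-cell shares 25.7, 24, 33.3 and 23.7%. As point values these were higher than the upper bounds of the exact 95% intervals of the endothelial shares, which were 11.5% to 17.2%. The intervals of the δ-cell shares themselves, which rest on few cells, were not set against those bounds. Median UMIs per cell were 17268, 8641, 11290 and 12334 in the β-cells and 9413, 5199, 7391 and 5902 in the δ-cells.

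Pcsk2 (chr2:143546156-143816285, plus strand) was found in all 4 classes and was highest in α-cells. Its β-cell levels were 1355 CPM untreated, 1278 under IL-1β, 1342 under IFN-γ and 1222 under both cytokines. In α-cells they were 2413, 2427, 2420.1 and 2905 CPM, in δ-cells 2069, 1953, 1909.9 and 2216 CPM and in PP-cells 1487, 1455, 1449 and 1585 CPM, in the order of the libraries above. The values of the 4 classes did not overlap, and every library gave the order α, δ, PP, β. The α-cells were above the β-cells by 0.62 ± 0.09 (SE), adjusted p = 1.46e-05. The difference of δ- from β-cells was 0.23 ± 0.10 (SE), adjusted p = 0.0669, and that of PP- from β-cells 0.18 ± 0.10 (SE), adjusted p = 0.188. The δ-cells lay below the α-cells by -0.39 ± 0.10 (SE), adjusted p = 0.00527. Without TMM the δ against β difference grew to 0.65 and passed, as it did with DESeq2 at 0.25.

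The partners of the convertases were higher in α- and PP-cells than in β-cells. Scg5 (chr2:113776362-113829121, minus strand), the chaperone of the Pcsk2 product, was at 741 CPM untreated, 754 under IL-1β, 673 under IFN-γ and 678 under both cytokines in β-cells. The α-cell levels were 1609, 1569, 1269 and 1556 CPM, the δ-cell levels 1334, 1593, 1376 and 1424 CPM and the PP-cell levels 1502, 1701, 1735 and 1612 CPM. No β-cell value reached those of another class. Against β-cells the log2 difference was 0.73 ± 0.10 (SE), adjusted p = 4.81e-06 in α-cells, 0.60 ± 0.10 (SE), adjusted p = 9.54e-05 in δ-cells and 1.19 ± 0.11 (SE), adjusted p = 1.84e-08 in PP-cells, and δ- and α-cells did not differ beyond the spread of the libraries (-0.13 ± 0.10 (SE), adjusted p = 0.456). Pcsk1n (chrX:7919822-7924410, plus strand), the inhibitor of the Pcsk1 product, was at 1426 CPM untreated, 899.9 under IL-1β, 1139 under IFN-γ and 1326 under both cytokines in β-cells and at 2964, 1498, 2008 and 2947 CPM in α-cells. In δ-cells it was at 1985, 1103, 1659 and 1838 CPM and in PP-cells at 1849.6, 1165, 1725 and 1501 CPM. Its ratio of α to β was 1.67 to 2.22 over the 4 libraries, but α-cells with IL-1β, at 1498 CPM, lay near untreated β-cells at 1426 CPM. The log2 difference from β-cells was 0.60 ± 0.10 (SE), adjusted p = 2.46e-05 in α-cells, 0.37 ± 0.10 (SE), adjusted p = 0.00742 in PP-cells and 0.04 ± 0.10 (SE), adjusted p = 0.807 in δ-cells, so that δ- and β-cells were not told apart on this scale. Without TMM the last difference was 0.45 and passed. The call in PP-cells was lost without the IFN-γ library, at 0.28.

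Cpe (chr8:64592542-64693054, minus strand) did not differ by the test between β-cells and either α- or PP-cells. It was at 989 CPM untreated, 2061 under IL-1β, 1388 under IFN-γ and 1322 under both cytokines in β-cells, 1777, 2445, 1742 and 1900.0 CPM in α-cells, 892, 1799, 1026 and 1147 CPM in δ-cells and 1116, 1705, 1302 and 1255 CPM in PP-cells. The ratio of α to β was 1.19 to 1.80, above 1 in all 4 libraries, yet the log2 difference after TMM was 0.14 ± 0.09 (SE), adjusted p = 0.225. Without TMM it was 0.49 and passed. In δ-cells Cpe was lower than in β-cells, at -0.64 ± 0.10 (SE), adjusted p = 1.51e-05, and lower than in α-cells, at -0.79 ± 0.10 (SE), adjusted p = 2.25e-06. The δ against β call was lost without TMM, at -0.24. The PP-cell difference was -0.08 ± 0.10 (SE), adjusted p = 0.591.

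**Figure D2:**
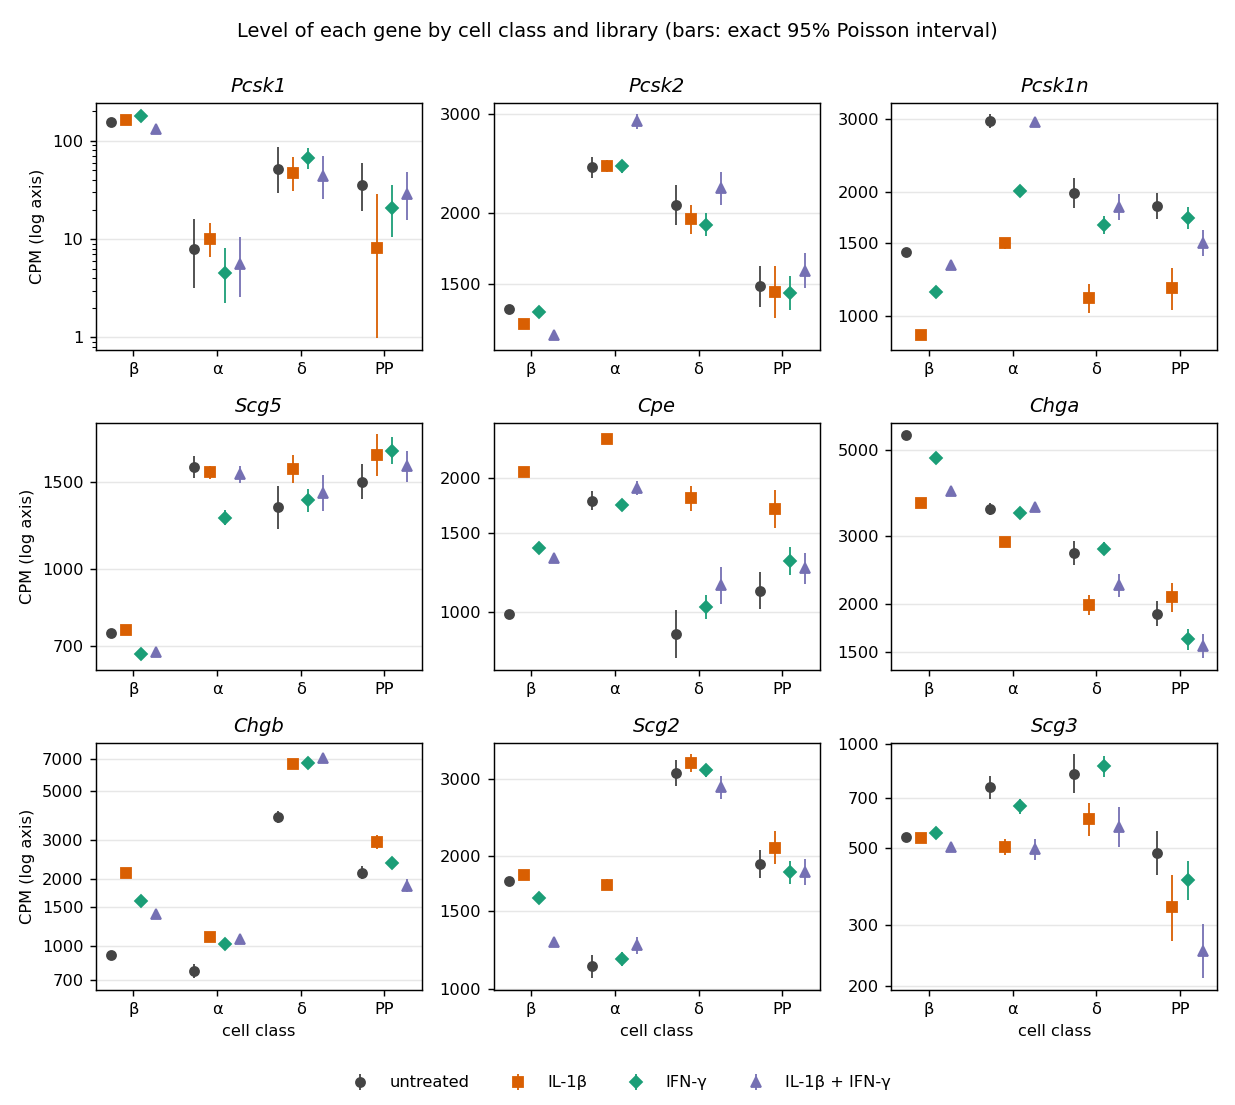
Level of each gene in CPM (log axis, one scale per panel) in β-, α-, δ- and PP-cells, with 1 symbol per library and bars of the exact 95% Poisson interval. Pcsk1 separates β-cells from the rest, Chgb and Scg2 are highest in δ-cells, and the IL-1β library is lowest for Pcsk1n and highest for Cpe in each class.

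The granins split by class. Chga (chr12:102554969-102565028, plus strand), the chromogranin used widely as a neuroendocrine marker, was at 5455 CPM untreated, 3640.5 under IL-1β, 4753 under IFN-γ and 3906 under both cytokines in β-cells and at 3511, 2887, 3436 and 3556 CPM in α-cells. It was at 2706, 1982, 2776 and 2231 CPM in δ-cells and 1888, 2080.0, 1619 and 1554 CPM in PP-cells. Each library had its highest value in β-cells. Against β-cells the log2 difference was -0.74 ± 0.12 (SE), adjusted p = 2.81e-05 in α-cells, -1.28 ± 0.12 (SE), adjusted p = 2.99e-08 in δ-cells and -1.33 ± 0.12 (SE), adjusted p = 3.80e-08 in PP-cells. Chgb (chr2:132781278-132795079, plus strand) was highest in δ-cells, with 3817 CPM untreated, 6612 under IL-1β, 6672 under IFN-γ and 7051 under both cytokines. The β-cell levels were 905, 2133, 1597 and 1386 CPM, the α-cell levels 767, 1093, 1018 and 1068 CPM and the PP-cell levels 2133, 2935, 2351 and 1868 CPM. All 4 δ-cell values exceeded every other value, and the ratio of δ to β was 3.10 to 5.09. The log2 difference from β-cells was 1.63 ± 0.13 (SE), adjusted p = 1.45e-09 in δ-cells, 0.66 ± 0.13 (SE), adjusted p = 0.000459 in PP-cells and -0.90 ± 0.13 (SE), adjusted p = 4.79e-06 in α-cells.

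Scg2 (chr1:79434669-79440120, minus strand), the secretogranin that is the source of secretoneurin, was likewise highest in δ-cells, at 3099 CPM untreated, 3261 under IL-1β, 3139 under IFN-γ and 2876 under both cytokines. It was at 1761, 1817, 1611 and 1280.3 CPM in β-cells, 1124, 1725, 1167 and 1257 CPM in α-cells and 1924, 2096, 1843 and 1845 CPM in PP-cells. The δ-cells lay above the β-cells by 0.53 ± 0.13 (SE), adjusted p = 0.00224 and above the α-cells by 1.17 ± 0.13 (SE), adjusted p = 4.64e-07, and the α-cells were below the β-cells, at -0.64 ± 0.13 (SE), adjusted p = 0.000260. The PP-cell difference from β-cells, 0.24 ± 0.13 (SE), adjusted p = 0.178, did not pass. Scg3 (chr9:75643189-75684056, minus strand), which binds Chga at the granule membrane, was at 540.1 CPM untreated, 536 under IL-1β, 553 under IFN-γ and 503 under both cytokines in β-cells, 750.0, 505, 661 and 498 CPM in α-cells, 822, 606, 863 and 577 CPM in δ-cells and 485, 339, 405 and 254 CPM in PP-cells. It was lower in PP- than in β-cells, at -0.57 ± 0.11 (SE), adjusted p = 0.000311. The α-cell difference was -0.19 ± 0.10 (SE), adjusted p = 0.115 and turned to 0.15, also not called, without TMM. The δ-cell difference was 0.00 ± 0.10 (SE), adjusted p = 0.988, and without TMM it was 0.41 and passed.

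Scg2 and Chgb followed each other most closely of the 36 pairs of members. Over the 16 sums Pearson's r of log2(CPM + 1) was 0.92, against -0.53 for Chga and Chgb. This describes 4 classes seen in 4 libraries, whose sums share a library and a class, and is given without a test. For the convertases r was -0.70, for Pcsk1 and Scg5 -0.77, and for Pcsk2 and Pcsk1n 0.72. Within the β-cells the pair Scg2 and Chgb were not in the same order by library, since the untreated β-cells had the lowest Chgb of the 4 libraries and nearly the highest Scg2.

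**Figure D3:**
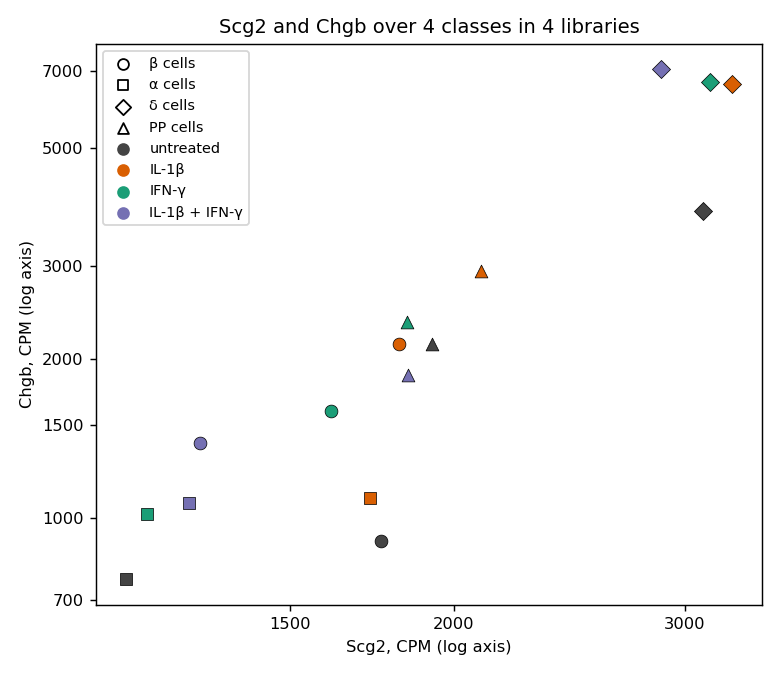
Scg2 against Chgb in CPM (log axes), 1 point per class (shape) and library (color). The δ-cells lie at the upper right with Chgb of 3817 CPM or more, and the untreated β-cells lie below the other β-cells in Chgb.

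The promoters of the members were searched for letter strings. RefSeq promoters of GRCm38.p6, from 250 bases before to 50 bases after the start, were found for 8 of the 9 genes (Cpe was not matched). Of 10 letter strings searched on both strands, TGACGTCA, the palindromic cAMP response element, was in 1.79% of all 32851 promoters and in 3 of the 8, those of Pcsk1, Scg2 and Chgb. It began 78, 68 and 72 bases before the RefSeq start, respectively. The shorter TGACG, which is part of the full element, was in 7 of the 8 and in 20.8% of all promoters. In Chga it begins 44 bases before that start, within TGACGTAA, a near match to the full element. Of the strings linked to the cytokine pathways, TTCNNNGAA, a STAT-type site, was in Scg2 and Scg5 (8.3% of promoters), and GAAANNGAA, part of an interferon response element, was in Pcsk1 (8.56%). The NF-κB strings GGGACTTTC and GGGAATTTC were in no member (0.353% and 0.259%). TGACTCA was in Pcsk1n (5.2%), TATAAA in Chga (13.6%), GGGCGG in 6 of the 8 (35.7%) and CATCTG in none (17.2%). These are matches of letters and do not show that a site is used. The start here is that of the RefSeq table, which lies downstream of the start of the GENCODE gene given above by 31 bases in Pcsk1, 94 in Scg2 and 364 in Chgb and upstream of it by 28 in Chga. Against the GENCODE starts the element begins 47 bases before in Pcsk1, and the near match 72 before in Chga, but the element begins 26 bases after in Scg2 and 292 after in Chgb, within the gene. The 30 bases around the element or near match, which is in capitals, are shown 5′ to 3′ for these 4 genes.
Pcsk1 (chr13:75089768-75089797, plus strand): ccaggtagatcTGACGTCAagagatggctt
Scg2 (chr1:79440076-79440105, minus strand): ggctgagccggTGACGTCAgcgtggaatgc
Chgb (chr2:132781559-132781588, plus strand): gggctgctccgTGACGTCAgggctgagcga
Chga (chr12:102554886-102554915, plus strand): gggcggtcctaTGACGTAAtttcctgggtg
Of the first 3 genes, which hold the full element, Pcsk1 was highest in β-cells and Scg2 and Chgb in δ-cells.

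After cytokine exposure, most members stayed within 1.5-fold of the untreated library, and Chgb, Cpe and Pcsk1n went past it in β-cells. With IL-1β, 2 of the 9 were more than 1.5-fold higher in β-cells (Cpe and Chgb) and 1 more than 1.5-fold lower (Pcsk1n), where 44.4% of the 8503 genes counted (those with a UMI in at least 10% of cells) were past 1.5-fold, 34.2% higher and 10.2% lower. With IFN-γ 1 member was past it, higher (Chgb), against 17.2% of genes (15.9% higher and 1.28% lower), and with both cytokines also 1, higher (Chgb), against 38.6% (20.2% and 18.3%). The median log2 ratio of the members was 0.02, -0.01 and -0.13, below the 0.34, 0.28 and 0.03 of all genes. These calls depend on the scale. With the hormone genes left out, 2 were higher (Cpe and Chgb) and 2 lower (Pcsk1n and Chga) in β-cells with IL-1β, against 14.4% of genes higher and 23.1% lower. With IFN-γ none was then higher and 1 was lower (Pcsk1n), against 4.74% and 5.44%. With both none was higher and 2 were lower (Chga and Scg2), against 13.3% and 27.6%. In α-cells 8 members could be counted, all but Pcsk1. With IL-1β 1 was higher (Scg2) and 1 lower (Pcsk1n), against 39.2% of genes (16.7% higher and 22.5% lower). With IFN-γ none was past the limit, against 23.6% (14.9% and 8.71%), and with both 1 was lower (Scg3), against 45.7% (17% and 28.7%). In δ-cells 2 were higher (Cpe and Chgb) and 1 lower (Pcsk1n) with IL-1β, against 48.6% (21.5% and 27.1%). There Chgb alone was higher with IFN-γ, against 36.3% (16.9% and 19.5%), and Chgb alone with both, against 57.9% (19.8% and 38%). In PP-cells 1 was higher (Cpe) and 2 lower (Pcsk1 and Pcsk1n) with IL-1β, against 58.2% (37.5% and 20.7%). Pcsk1 was lower there with IFN-γ, against 39.8% (25.4% and 14.4%), though from 12 against 14 UMIs at a ratio of 0.574 (0.243 to 1.34) whose interval holds 1, and Scg3 was lower with both, against 55.1% (21.6% and 33.5%). With the hormone genes left out, none was higher and 2 were lower in α-cells with IL-1β (Pcsk1n and Scg3), against 14.3% and 26.4%, and 1 was lower with IFN-γ (Pcsk1n), against 10.9% and 12.1%. In PP-cells with IL-1β none was then higher and 3 were lower (Pcsk1, Pcsk1n and Scg3), against 23.7% and 30.9%. In the δ-cells, and in the other comparisons of α- and PP-cells, the counts were equal on the scales. Several of the ratios lie near the limit. Without the upper gene limit and in cells thinned to 4000 UMIs, Chgb in β-cells with both was at 1.44 and 1.49, Scg2 in α-cells with IL-1β at 1.48 and 1.46 and Scg3 in α-cells with both at 0.694 and 0.706, and none of these was then past 1.5-fold. Thinning also brought Cpe in PP-cells with IL-1β to 1.47 and Pcsk1 in PP-cells with IFN-γ to 0.759. Chga in β-cells with IL-1β, at 0.667 just inside the limit, was past it in thinned cells (0.663), with a mitochondrial limit of 20% (0.651), with classes set by the leading hormone (0.665), with doubled class limits (0.658) and without cells rich in the heat shock gene Hspa1a (0.661), as it was without the hormone genes.

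**Figure D4:**
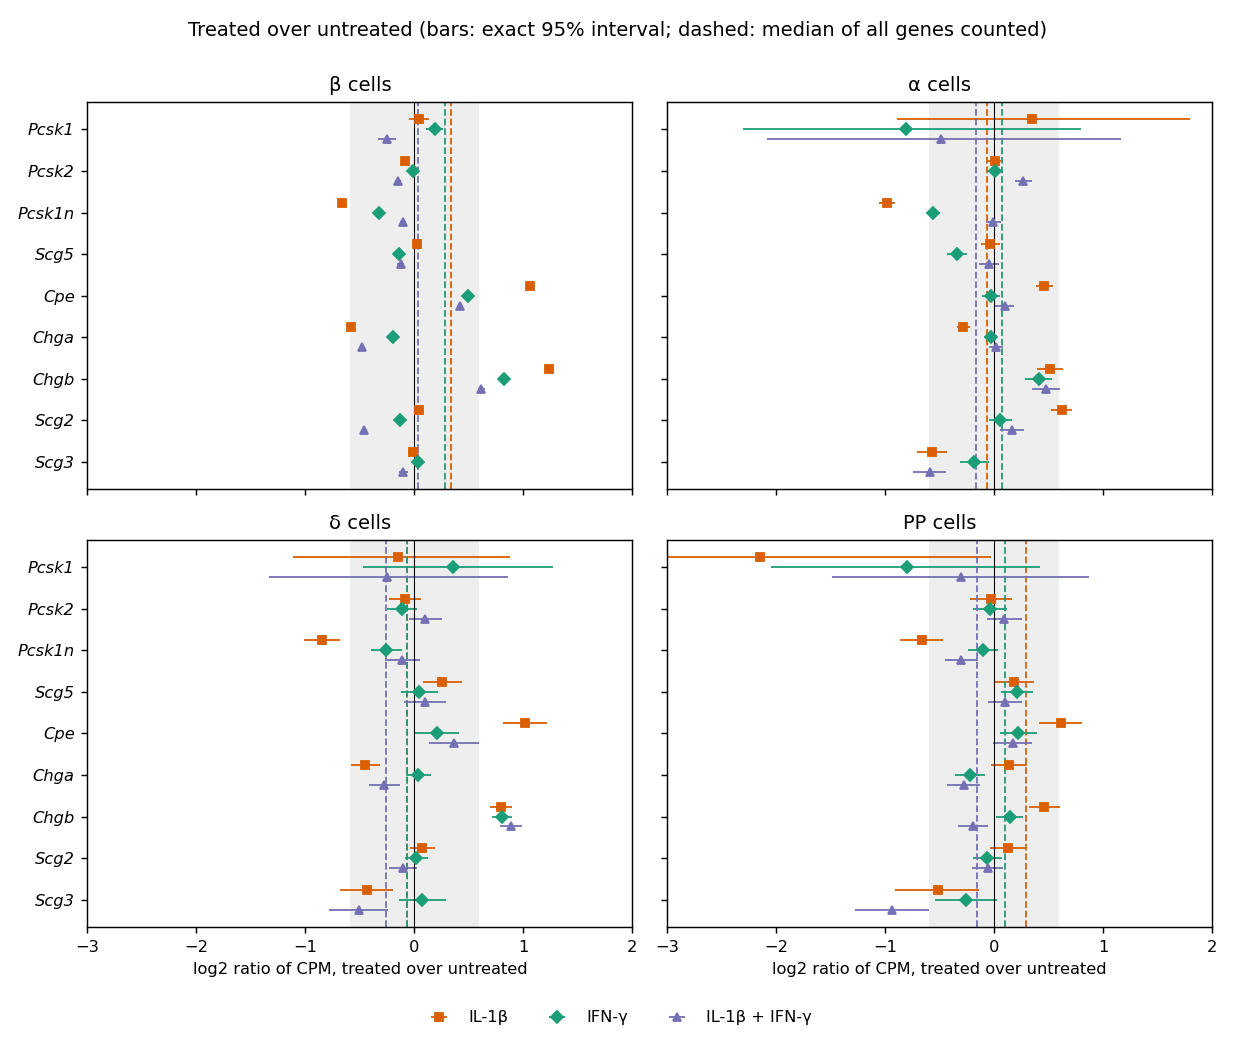
Log2 ratio of CPM, treated over untreated, for the 9 genes in each cell class, with exact 95% intervals; the grey band is 1.5-fold and dashed lines are the median of all genes counted in that comparison. Chgb lies to the right in β- and δ-cells in all 3 treated libraries, and Pcsk1n to the left with IL-1β in all 4 classes. The interval of Pcsk1 in PP-cells with IL-1β runs past the left edge.

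Chgb had the largest ratios of the members in β-cells with each treatment. The ratio to untreated was 2.36 (2.31 to 2.40) under IL-1β, 1.76 (1.73 to 1.80) under IFN-γ and 1.53 (1.5 to 1.56) under both. With the hormone genes out of the totals these ratios were 1.75, 1.43 and 1.30, so that the order was kept and only the first stayed past 1.5-fold. Ratios above 1 were also found in other classes. In δ-cells, where its level was highest, the ratios were 1.73 (1.62 to 1.85), 1.75 (1.64 to 1.87) and 1.85 (1.72 to 1.98), and in α-cells 1.42 (1.31 to 1.55), 1.33 (1.22 to 1.45) and 1.39 (1.27 to 1.52). In PP-cells they were 1.38 (1.24 to 1.52), 1.10 (1.01 to 1.20) and 0.876 (0.796 to 0.963), and the combined library was below untreated, as was the IFN-γ library without the hormone genes, at 0.985. The PP-cell ratios depended on the cell filter. Without the upper gene limit they were 1.79 with IL-1β and 1.62 with IFN-γ, both then past 1.5-fold. Chga was lower in treated than in untreated β-cells, with ratios of 0.667 (0.659 to 0.676), 0.871 (0.863 to 0.880) and 0.716 (0.709 to 0.723), or 0.496, 0.706 and 0.610 without the hormone genes. The untreated β-cells thus had the highest Chga and the lowest Chgb of the 4 libraries on both scales. In α-cells the Chga ratios were 0.822 (0.789 to 0.858), 0.979 (0.939 to 1.02) and 1.01 (0.969 to 1.06), or 0.773, 0.909 and 0.950 without the hormone genes. In δ-cells they were 0.732 (0.667 to 0.804), 1.03 (0.947 to 1.11) and 0.825 (0.748 to 0.910). The PP-cell ratios were 1.10 (0.983 to 1.23), 0.857 (0.778 to 0.945) and 0.823 (0.743 to 0.912), of which the first was below 1 without the hormone genes.

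Cpe, the carboxypeptidase gene, was also above untreated in β-cells, with ratios of 2.08 (2.04 to 2.13), 1.40 (1.38 to 1.43) and 1.34 (1.31 to 1.36), and 1.55, 1.14 and 1.14 without the hormone genes. The IL-1β library held the highest Cpe level in each of the 4 classes. Its ratio there was 1.38 (1.30 to 1.46) in α-cells, 2.02 (1.76 to 2.32) in δ-cells and 1.53 (1.33 to 1.75) in PP-cells, the last of which was 1.18 without the hormone genes. The combined library was lower in Cpe than the IL-1β library, at 0.642 (0.629 to 0.654) of it in β-cells (0.734 with the hormone genes left out) and at 0.638 (0.569 to 0.714) in δ-cells.

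Pcsk1n was lower with IL-1β in all 4 classes. Its ratio with IL-1β was 0.631 (0.616 to 0.647) in β-cells, 0.506 (0.481 to 0.531) in α-cells, 0.556 (0.495 to 0.624) in δ-cells and 0.630 (0.548 to 0.723) in PP-cells, and the IL-1β library was the lowest in each class. Without the hormone genes the 4 ratios were 0.469, 0.475, 0.527 and 0.488. With IFN-γ the ratios were 0.799 (0.783 to 0.815), 0.677 (0.646 to 0.711), 0.836 (0.759 to 0.921) and 0.932 (0.847 to 1.03), and the first 2 were 0.647 and 0.629 without the hormone genes. With both cytokines they were closer to 1 than with IL-1β, at 0.930 (0.913 to 0.947), 0.994 (0.948 to 1.04), 0.926 (0.828 to 1.04) and 0.811 (0.731 to 0.900). The combined library had 1.47 (1.44 to 1.51) times the Pcsk1n of the IL-1β library in β-cells (1.69 with the hormone genes left out) and 1.97 (1.88 to 2.05) in α-cells. Islets exposed to both cytokines thus had less Cpe and more Pcsk1n than those exposed to IL-1β alone in all 4 classes, also without the hormone genes.

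The convertases stayed within 1.5-fold in β-cells. Pcsk1 in β-cells had ratios of 1.03 (0.969 to 1.10), 1.14 (1.08 to 1.20) and 0.839 (0.793 to 0.887). Without the hormone genes these were 0.767, 0.922 and 0.714, so that the first 2 lay on either side of 1 with the scale and only the value with both cytokines was below 1 on both. In PP-cells the IL-1β ratio of 0.225 (0.0249 to 0.981) rests on 2 UMIs against 14. Pcsk2 ratios in β-cells were 0.944 (0.923 to 0.964), 0.990 (0.972 to 1.01) and 0.902 (0.885 to 0.919), and 0.702, 0.802 and 0.768 without the hormone genes. In α-cells, where Pcsk2 acts on proglucagon, they were 1.01 (0.957 to 1.06), 1.0 (0.954 to 1.05) and 1.20 (1.14 to 1.27), or 0.945, 0.932 and 1.13 without the hormone genes. Scg5, its chaperone, had β-cell ratios of 1.02 (0.988 to 1.05), 0.908 (0.885 to 0.932) and 0.915 (0.893 to 0.939), and 0.756, 0.736 and 0.779 without the hormone genes.

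Scg2 and Scg3 had unlike ratios between classes, a difference that was not tested. In β-cells Scg2 had ratios of 1.03 (1.01 to 1.05), 0.915 (0.900 to 0.930) and 0.727 (0.715 to 0.740), or 0.768, 0.741 and 0.619 without the hormone genes, where the IL-1β value passed to the other side of 1. In α-cells the IL-1β library stood out, with a ratio of 1.53 (1.43 to 1.64) against 1.04 (0.965 to 1.12) under IFN-γ and 1.12 (1.04 to 1.21) under both. Without the hormone genes these were 1.44, 0.964 and 1.05, so that the first was within 1.5-fold and the second below 1. Scg3 stayed near untreated in β-cells, with ratios of 0.993 (0.960 to 1.03), 1.02 (0.993 to 1.05) and 0.932 (0.905 to 0.959), though these became 0.739, 0.829 and 0.793 without the hormone genes. In the other 3 classes it was lower in both libraries that received IL-1β. The ratios with IL-1β and with both were 0.673 (0.613 to 0.740) and 0.664 (0.598 to 0.737) in α-cells, 0.738 (0.622 to 0.875) and 0.702 (0.582 to 0.847) in δ-cells, and 0.698 (0.533 to 0.906) and 0.523 (0.413 to 0.660) in PP-cells. Without the hormone genes the IL-1β values in α- and PP-cells, 0.633 and 0.540, were past 1.5-fold as well. With IFN-γ alone they were 0.881 (0.804 to 0.965), 1.05 (0.907 to 1.22) and 0.835 (0.687 to 1.02).

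As a whole, the 9 genes took 1.33%, 1.33%, 1.32% and 1.18% of β-cell UMIs in the same order of libraries. Without the hormone genes in the totals these shares were 2.55%, 1.89%, 2.05% and 1.91%. With all UMIs in the totals, the α-cell shares were 1.49%, 1.42%, 1.37% and 1.57% and the δ-cell shares 1.68%, 1.90%, 1.95% and 1.94%. Without the hormone genes they were 1.97%, 1.76%, 1.68% and 1.94% in α-cells and 2.20%, 2.35%, 2.51% and 2.42% in δ-cells. On that scale α-cells lay below β-cells in all but the combined library, and δ-cells did so in the untreated one. In endothelial cells and macrophages, which should not make granules, the share of all UMIs was between 0.00637% and 0.0211%, except for the endothelial cells of the IL-1β library at 0.25%. Those 35 cells also held 719 CPM of Chga and 1.94% hormone UMIs, and each member was present in at most 9 of them. Their part in the other results was not tested.

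Single cells were compared after thinning each to 4000 UMIs, which left out 21, 53, 42 and 26 β-cells and 9, 34, 14 and 5 α-cells of the libraries in the order above. Both convertases were seen in 45.0% (42.1 to 47.9) of untreated β-cells, 40.9% (37.9 to 44.1) under IL-1β, 48.8% (45.8 to 51.7) under IFN-γ and 37.7% (35.0 to 40.5) under both, with exact binomial 95% intervals. Nearly all other β-cells held Pcsk2 alone, at 53.6%, 58.0%, 50.5% and 61.1%, and at most 6 cells of a library held Pcsk1 alone. In α-cells both were seen in 5.0% (1.38 to 12.3), 2.13% (0.860 to 4.33), 1.74% (0.568 to 4.02) and 1.17% (0.142 to 4.16). The δ-cells lay between, at 17.2% (5.85 to 35.8), 17.9% (10.4 to 27.7), 18.4% (11.8 to 26.8) and 19.2% (9.63 to 32.5). With a mean of 0.653 Pcsk1 UMIs per thinned untreated β-cell, a cell without one cannot be called negative. Pcsk1 alone or with Pcsk2 was in 45.5, 41.1, 48.8 and 37.9% of thinned β-cells, against the unthinned 83.5, 64.2, 74.9 and 70.5%.

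**Figure D5:**
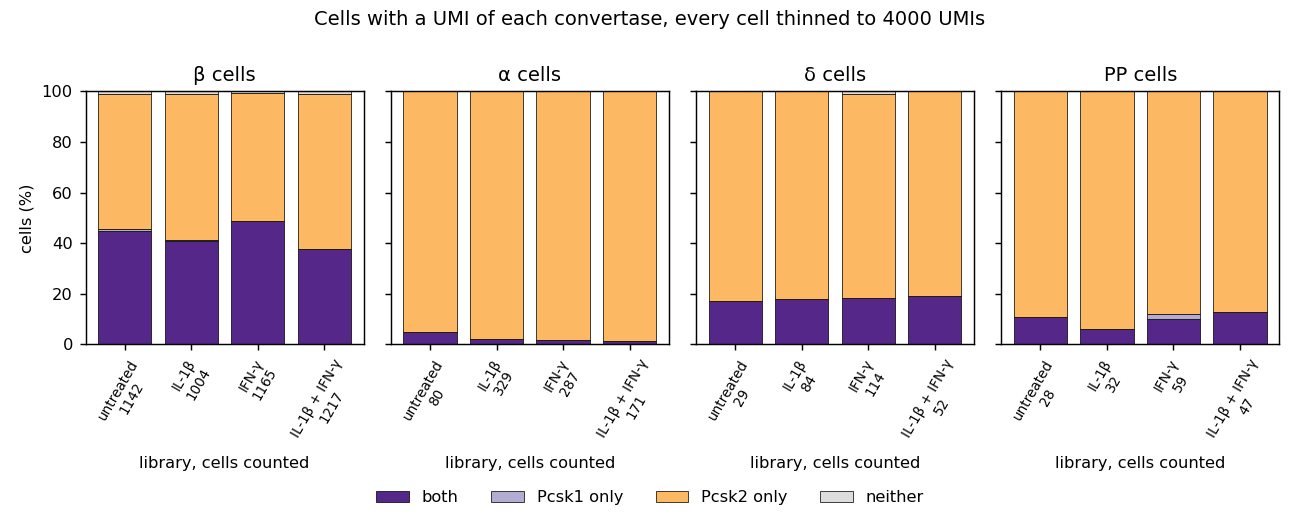
Percent of cells with a UMI of both convertases, of Pcsk1 alone, of Pcsk2 alone or of neither, after thinning to 4000 UMIs, by class and library with the number of cells below each bar. Cells with both make up 37.7% to 48.8% of β-cells and 1.17% to 5.0% of α-cells.

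Chga and Chgb varied widely from cell to cell. In thinned β-cells the variance over the mean, which is 1 for pure counting noise, was 6.60, 6.69, 7.53 and 6.97 for Chga. It was 3.78, 7.75, 7.45 and 6.03 for Chgb, which was wider in every treated library than in the untreated one. For the other 7 members it stayed between 1.16 and 2.14. This measure grows with the mean, which for Chgb was 3.80, 8.36, 6.39 and 5.65 UMIs per thinned cell, so that the values do not separate a change in spread from one in level. The PP-cells were uneven for Chga in all 4 libraries, with median UMIs of 4.5, 3.5, 3.0 and 3.0 per thinned cell, means of 8.21, 7.5, 7.25 and 6.60, and a highest cell of 51, 55, 68 and 74. The variance over the mean there was 18.7, 18.2, 24.1 and 22.9, and the means exceeded the medians in each library. A UMI of all 9 members was present in 33.1%, 31.2%, 36.6% and 27.2% of thinned β-cells, and the median β-cell held 8 of the 9 in each library.

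Subsets of β-cells were examined for these genes. Nos2, the inducible nitric oxide synthase gene, was at 0.0501 CPM in untreated β-cells and at 145, 2.49 and 645 CPM with IL-1β, IFN-γ and both. β-Cells with a Nos2 UMI numbered 329 of 1057 with IL-1β and 900 of 1243 with both. Chgb was lower in those with Nos2 than in those without in the IL-1β library, at 1891 against 2257 CPM, a ratio of 0.838 (0.813 to 0.864), but not in the combined library, at 1393 against 1364 CPM, a ratio of 1.02 (0.990 to 1.05). Scg3 was lower in both, with ratios of 0.840 and 0.871. The 9 ratios ranged from 0.838 to 1.04 with IL-1β and from 0.871 to 1.04 with both. The cells with Nos2 were deeper, with medians of 9427 against 8340 UMIs and 12927.5 against 10962.

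β-Cells with at least 10 UMIs of Hspa1a, an inducible heat shock chaperone, per 10000 numbered 17 in the untreated library and 89 under IL-1β, 75 under IFN-γ and 86 under both. In the IL-1β library Chgb in these cells was at 1343 against 2189 CPM, a ratio of 0.613 (0.572 to 0.657). Mafa there was at 323 against 54.0 CPM, a ratio of 5.99 (5.05 to 7.07). Neither value held across the libraries. Chgb was instead higher in the combined library, at a ratio of 1.13 (1.07 to 1.19). The IFN-γ library gave 0.870, and the untreated library 0.929 with an interval that held 1. Mafa was lower in the untreated and IFN-γ libraries, at 0.333 and 0.786, and higher in the combined one, at 2.32. The Pcsk1 ratio of the cells rich in Hspa1a to the other β-cells was below 1 in each library, at 0.743, 0.646, 0.627 and 0.935. The intervals of the first and last held 1. Pcsk1n was higher, with 1.29, 1.20, 1.35 and 1.23. Scg5 was above 1 as well, with an interval that held 1 in the untreated library, at 1.13, 1.29, 1.35 and 1.29. The cells rich in Hspa1a were shallower, with medians of 13204, 6685, 8824 and 12111 UMIs against 17317.5, 8761, 11412.5 and 12356.

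The genes whose pattern over the 16 sums was most like that of Pcsk1, among 9069 genes with at least 10 CPM in a class, were Igsf1 (Pearson's r = 0.88), Frzb (0.87) and Zdhhc2 (0.87). Zdhhc2, a palmitoyltransferase, was at a mean of 279.8 CPM in β-cells, 46.2 in α-cells, 106 in δ-cells and 65.4 in PP-cells. For Pcsk2 the nearest were the ribosomal protein gene Rps16 (0.95), Arpc3 (0.94), a subunit of an actin nucleator, and Rpl7a (0.94), another ribosomal protein gene. Since these sums share libraries and the hormone share of each class, the values are a description only.

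Beside the 9 members, 26 other genes of the regulated secretory pathway were followed. Between α- and β-cells 20 of them could be tested, of which 8 were higher in α, 9 lower and 3 not called, against the 43% of all genes called (20.3% higher and 22.7% lower). The largest differences were those of Vgf, a granin-like protein cut into several peptides, at 3.97 ± 0.18 (SE), adjusted p = 5.20e-14, Iapp, a β-cell peptide hormone stored with insulin, at -3.90 ± 0.32 (SE), adjusted p = 1.49e-09, Bace2, a protease of β-cells, at -3.32 ± 0.26 (SE), adjusted p = 5.87e-10, and Ero1lb, an oxidase that helps proinsulin fold, at -2.72 ± 0.16 (SE), adjusted p = 5.83e-12. For δ- against β-cells 6 were higher, 8 lower and 6 not called (all genes 16.6% and 17.8%), and for PP- against β-cells 4 were higher, 8 lower and 8 not called (12.4% and 14.5%). For δ- against α-cells 2 were higher, 5 lower and 13 not called (10.8% and 8.84%).

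In treated β-cells, Vgf had the largest ratios of this list. It was at 6.01 CPM untreated, 34.4 under IL-1β, 13.1 under IFN-γ and 30.4 under both cytokines, with ratios to untreated of 5.73 (4.63 to 7.12), 2.17 (1.71 to 2.76) and 5.06 (4.13 to 6.24). Without the hormone genes these were 4.26, 1.76 and 4.31. Pam, the enzyme that amidates peptide ends, followed the members Cpe and Chgb in being highest with IL-1β, with ratios of 2.46 (2.35 to 2.56), 1.81 (1.73 to 1.88) and 1.16 (1.11 to 1.22), as did Cpd, a carboxypeptidase related to Cpe, with 2.03 (1.86 to 2.21), 1.48 (1.36 to 1.60) and 1.18 (1.08 to 1.28). The protease gene Ctsl had 2.48 (2.39 to 2.58), 1.254 (1.20 to 1.31) and 1.29 (1.24 to 1.34). Slc30a8, the zinc transporter of the insulin granule, was lower in both libraries with IL-1β, with 0.547 (0.518 to 0.576) and 0.418 (0.398 to 0.438) against 0.980 (0.944 to 1.02) with IFN-γ. Ero1lb had 0.735 (0.704 to 0.766), 0.954 (0.922 to 0.987) and 0.520 (0.499 to 0.541). At levels under 15 CPM, Pcsk4 was lower with IL-1β and with both (0.368 (0.245 to 0.538) and 0.334 (0.238 to 0.461)), Pcsk6 had 1.51 (1.20 to 1.90) and Slc18a1 2.15 (1.70 to 2.73) with IFN-γ. On the scale without the hormone genes the ratios, in the same order of treatments, were 1.83, 1.46 and 0.991 for Pam, 1.51, 1.20 and 1.0 for Cpd and 1.85, 1.02 and 1.10 for Ctsl. They were 0.407, 0.794 and 0.356 for Slc30a8, 0.546, 0.773 and 0.443 for Ero1lb and 0.274, 0.680 and 0.284 for Pcsk4. With IFN-γ, Pcsk6 was then at 1.23 and Slc18a1 at 1.74. In all, 4 of 22 genes counted were past 1.5-fold higher and 2 lower with IL-1β (all genes 34.2% and 10.2%), 4 and 0 of 23 with IFN-γ (15.9% and 1.28%), and 1 and 3 of 22 with both (20.2% and 18.3%). On that scale the counts were 4 and 5 of 21 (all genes 14.4% and 23.1%), 2 and 0 of 22 (4.74% and 5.44%), and 1 and 5 of 21 (13.3% and 27.6%).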

How the data were processed

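Per the labels and the study's methods, the authors made the deposited counts with Cell Ranger on mm10, as whole-number UMI counts per gene and cell barcode, 1 matrix per library, without normalization. The total depth was 50731370 UMIs untreated, 20056630 under IL-1β, 31209339 under IFN-γ and 25716645 under both. The cell filter followed the study's stated limits, which left fewer cells than the study states. No doublet caller was run, since the upper gene limit is meant to remove doublets, and cells past more than 1 hormone limit were left out. No annotation of cells was used, and class names rest on the hormone shares.

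From these counts, UMIs were summed per library and class in Python 3.11.15 (scipy 1.17.1) and expressed as CPM, with exact Poisson, binomial and conditional ratio intervals at 95%. Class differences were tested in R 4.3.3 with edgeR 4.0.16 (filterByExpr, TMM, glmQLFit, library as a term) on 16 sums, with Benjamini-Hochberg adjustment and a threshold of 0.05. DESeq2 1.42.0 was an alternative. Each p and SE comes from the fit to the 16 sums. They measure the spread between 4 libraries of 1 islet pool that differ in treatment. Scripts were tested on simulated data. Between conditions a gene counted as past the limit at 1.5-fold, among genes with a UMI in at least 10% of the cells of a class in either library.

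The members and the wider list of 27 genes, of which 26 were measured on a single row each (Pick1 was on 2 rows and left out), were chosen with earlier results of these data known. Of the wider list, the text names the genes past 1.5-fold in β-cells and the 4 with the largest called difference between α- and β-cells, and for Pcsk1 and Pcsk2 the 3 genes with the highest Pearson's r. The alternatives lifted the upper gene limit or set the mitochondrial one to 20%. They further comprised other class rules, totals without hormone genes, thinning to 4000 UMIs, subtraction of the β-cell profile, no TMM, DESeq2, no low-count filter, no library term, leaving out each library, and other limits for the counts. Leaving out β-cells rich in Hspa1a was added after seeing the data.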

Additional observations from a re-analysis of the deposited data

Results flagged for a closer look

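Some ratios of treated to untreated lay on opposite sides of 1 in different cell classes, with exact 95% counting intervals that leave out 1 in each class when all UMIs are in the totals. There is 1 library per condition, so none of these differences between classes was tested. With both cytokines, Pcsk2 had a ratio of 1.20 in α-cells and 0.902 in β-cells, and Scg2 had 1.12 in α-cells and 0.727 in β-cells. With both cytokines, Chgb had 1.53 in β-cells, 1.39 in α-cells and 1.85 in δ-cells against 0.876 in PP-cells. With IFN-γ, Scg5 had 1.15 in PP-cells against 0.908 in β-cells and 0.789 in α-cells. Among these, the PP-cell values rest on 31 untreated, 64 IFN-γ and 51 combined cells. With the hormone genes out of the totals, the Scg2 value in α-cells was 1.05 (0.971 to 1.13) and the Scg5 value in PP-cells 1.03 (0.932 to 1.15), both with intervals that hold 1, so that these opposites were lost. Those of Pcsk2 and Chgb were kept, at 1.13 and 0.768 for Pcsk2 in α- and β-cells and at 1.30, 1.30, 1.76 and 0.801 for Chgb in β-, α-, δ- and PP-cells.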

How the results depend on the processing

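Of the member counts recomputed under alternatives, 202 stayed within 1.5 times the reported count and 29 did not. With a lower limit, 25% above untreated or the same factor below it, the members past it with IL-1β were 5 in α-, 5 in δ- and 5 in PP-cells (62%, 69.4% and 77.4% of all genes), with IFN-γ 3 in β-, 3 in α- and 2 in δ-cells (48.3%, 49.4% and 59.2%), and with both 4 in β-, 2 in α- and 3 in δ-cells (61.6%, 66.4% and 75.6%). Without the upper gene limit the counts were 1 in α-cells with IL-1β, 1 in α-, 2 in δ- and 2 in PP-cells with IFN-γ, and 0 in β- and in α-cells with both. After thinning they were 1 in α- and 0 in PP-cells with IFN-γ, and 0 in β-, 0 in α- and 2 in δ-cells with both. With hormone genes out of the totals they were 1 in α-cells with IFN-γ and 2 in β-cells with both, and the direction or membership of the counts changed further with IL-1β in β-cells (2 higher and 2 lower), α-cells (0 and 2) and PP-cells (0 and 3) and with IFN-γ in β-cells (0 and 1). Doubled class limits gave 0 in PP-cells with IFN-γ and 0 in α-cells with both, and a mitochondrial limit of 20% or counting every gene gave 1 in α-cells with IFN-γ. Between classes, 6 members were higher in δ- than in β-cells without TMM, as were 3282 of all 8675 genes, against 1442 with it. Without the library as a block, 1 was higher in PP- than in β-cells (448 of 8675 genes) and 1 lower in δ- than in α-cells (236 of 8675). Leaving out each library in turn gave 2 to 3 higher in PP- and 3 to 4 in δ- than in β-cells. Of the 7911 to 9553 genes then tested, 656 to 974 and 1000 to 1373 were higher. The log2 differences that turned sign, none of them called, were those of Pcsk1n between δ- and β-cells (-0.00354 with doubled limits, -0.0302 thinned, -0.0408 without the filter, and -0.0178 without IFN-γ, in a range up to 0.102 over the libraries left out), Cpe between PP- and β-cells (0.00435 without IL-1β, in a range from -0.13), and Scg3, at 0.15 between α- and β-cells without TMM and between δ- and β-cells at -0.00885 (mitochondrial limit), -0.142 (class of the leading hormone), -0.0576 (thinned), -0.00196 (subtraction), -0.0739 (no filter) and -0.106 (without IFN-γ, in a range up to 0.0679). The cause of these shifts was not tested. Leaving out β-cells rich in Hspa1a, chosen after seeing the data, gave 4 in place of 3 with IL-1β, Chga being the added one, and the reported counts with IFN-γ and with both. No difference between conditions has a replicate, and PP- and δ-cells have the fewest cells. Intervals were wide where UMIs were few, as for Pcsk1 in PP-cells with IL-1β (0.0249 to 0.981) and in α-cells with IFN-γ (0.202 to 1.74).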
